A study of Capra hircus with 2 samples.

Results

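The transcription factors SOX9, NFIB, LHX2, TBX1, MSX2, FOXN1, GATA3, SOX4, ALX4 and SOX18, which have known parts in the hair follicle, were followed through the cells of goat skin. These 10 genes were chosen by symbol from the 27137 features of the count matrix. The cells were suspensions of scapular skin in anagen, the growth phase of the hair cycle, from 2 healthy Liaoning cashmere goats, and were measured by droplet single-cell RNA sequencing. One goat was of the coarse type (CT-LCG) and the other of the fine type (FT-LCG), with 1 library each, so that fibre type, animal and library cannot be told apart and no test between the types was possible. No age was given for either goat in the sources used.

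A hair follicle is a set of concentric sleeves. The outer root sheath is continuous with the epidermis and holds the stem cells, the matrix at the base divides and gives rise to the cortex of the shaft and to the inner root sheath that moulds it, and the dermal papilla, a knot of stromal cells, signals to the matrix from below. Each compartment is known for its own transcription factors, which switch on the keratins, receptors and signals that define it.

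The 4 populations were set apart without using any of the 10 genes. The outer root sheath was the cluster led by SFRP1, an inhibitor of Wnt signals, with 94 (CT-LCG) and 536 (FT-LCG) cells. The matrix and cortex were cells with at least 20 UMIs per 10000 of KRT35, a hair keratin, with 54 and 163 cells. The inner sheath was made of cells with at least 100 UMIs per 10000 of TCHH, trichohyalin, with 16 and 25 cells. The stromal population was the cluster with the highest level of RSPO3, a Wnt agonist of the dermal papilla, with 100 and 115 cells. Collagen genes led this cluster, with COL1A1 at 43.6 and 93.5 and RSPO3 at 11.8 and 1.53 UMIs per 10000. A UMI counts 1 captured molecule of RNA, and a level here is the summed UMIs of a gene per 10000 UMIs of a population, with an exact Poisson 95% interval that covers counting error only.

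Of the marker genes listed for each population and present in the matrix, those at least 2-fold above all other cells in both libraries numbered 6 of 7 in the outer root sheath, 3 of 5 in the matrix and cortex, 3 of 4 in the inner sheath and 10 of 10 in the stromal cells. Each count includes the gene that set the population apart (SFRP1, KRT35, TCHH or RSPO3), so that gene's passing was not independent of the choice. The markers that fell short were KRT5 in the outer root sheath, KRT38 and KRTAP3-1 in the matrix and cortex, and KRT26 in the inner sheath. The libraries held 3443 and 9608 kept cells, with medians of 2314 and 6121.5 UMIs per cell, and 11 barcode sequences occurred in both. Of the 4 populations the matrix and cortex differed most in depth, with medians of 2001.5 (CT-LCG) and 16067 (FT-LCG) UMIs. The 16 inner sheath cells of CT-LCG held 24252 UMIs in all, so that a single UMI there already makes a level of 0.412. The stromal cells also differed in make-up, since the summed level of 5 muscle and pericyte genes was 7.27 in CT-LCG and 60.3 in FT-LCG.

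Of the 7 factors with at least 20 UMIs over the 4 populations in each library, 6 were highest in the same population in both libraries, while this held for 45.4% of the 7047 genes that could be ranked. SOX9, NFIB, TBX1 and SOX4 were highest in the outer root sheath, SOX18 in the stromal cells and GATA3 in the inner sheath. MSX2 was the exception, with almost equal levels in the inner sheath and in the matrix and cortex. FOXN1, LHX2 and ALX4 had too few UMIs to be ranked.

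**Figure D1:**
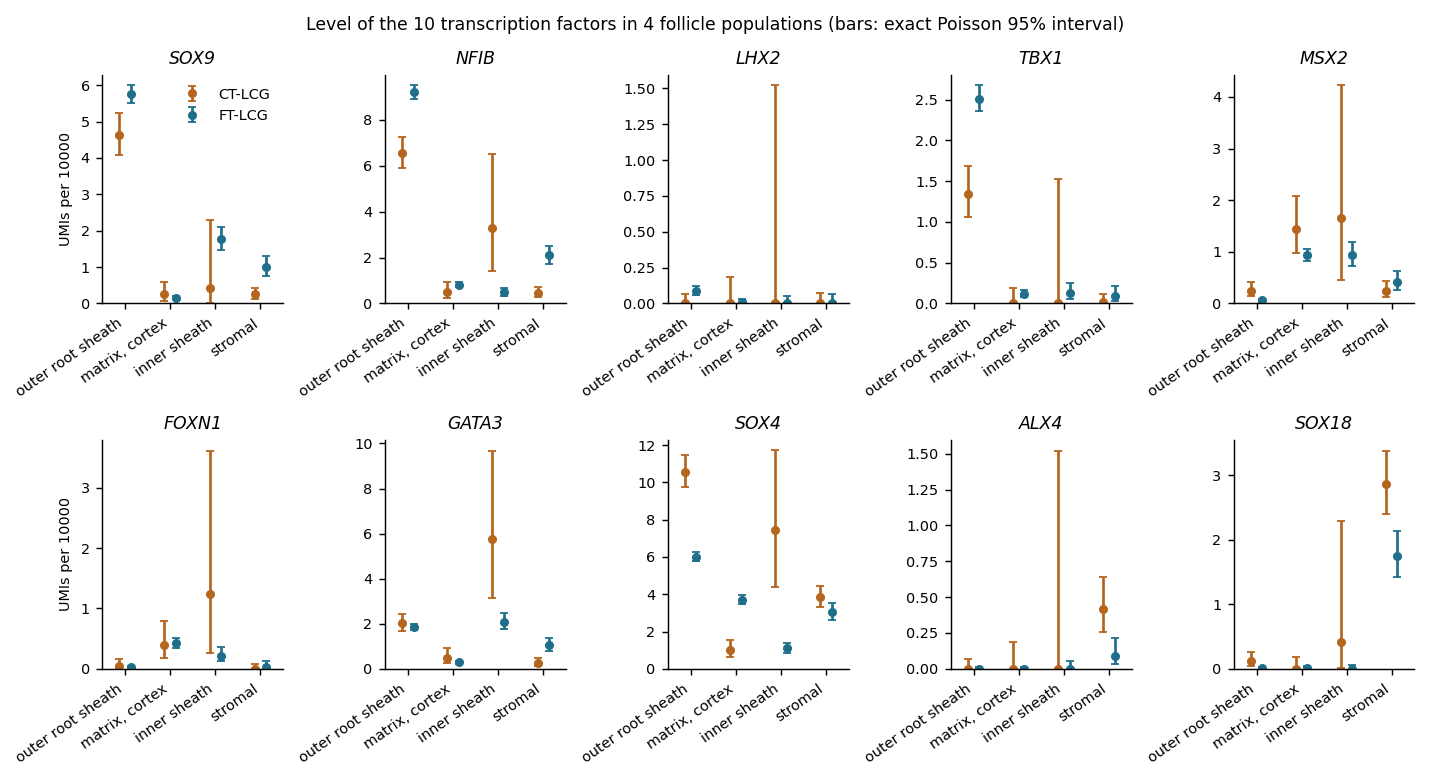
Level of each of the 10 factors, in UMIs per 10000, in the 4 populations, with CT-LCG in brown and FT-LCG in blue, each point a sum over the cells of 1 library and each bar an exact Poisson 95% interval. SOX9, NFIB, TBX1 and SOX4 stand highest in the outer root sheath of both libraries and SOX18 in the stromal cells, while the long bars of the CT-LCG inner sheath come from 16 cells.

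A stricter rule asked for a level at least 2-fold above each of the other 3 populations in both libraries, with the others raised to the level of at least 3 UMIs. SOX9 passed it for the outer root sheath, as 0.369% of the 7047 genes did, and SOX18 for the stromal cells, as 1.02% did. No factor passed for the matrix and cortex or for the inner sheath, where 0.326% and 0.979% of genes passed. TBX1 missed it against the CT-LCG inner sheath, where no UMI was found and the level was raised to that of 3 UMIs. That floor was 1.24, and the Poisson upper limit was 1.52, against 1.34 in the outer root sheath.

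SOX9, the HMG-box factor that keeps the follicle stem cells and the outer root sheath, had a level of 4.64 (4.09 to 5.24) in the CT-LCG outer root sheath and 5.75 (5.52 to 5.99) in the FT-LCG one. In the matrix and cortex it was 0.25 and 0.16, and in the stromal cells 0.25 and 1.01. The inner sheath levels were 0.41, from a single UMI, for CT-LCG and 1.76 for FT-LCG. In each library the outer root sheath was above the other 3 populations beyond the counting intervals. Of the 121 SOX9 UMIs of the FT-LCG inner sheath, 117 came from 1 cell, which held 3860 UMIs of TCHH and 6120 of KRT25 and no SFRP1. The same cell held 345 of the 517 KRT5 UMIs and 309 of the 602 KRT14 UMIs of this population. The FT-LCG inner sheath cell with the most TCHH held 7 and 13. Whether the cell with SOX9 was a mixture was not tested.

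Over all 15 populations and clusters, the level nearest to that of the outer root sheath was in an unnamed cluster led by TRPV3 and DENND2C. SOX9 reached 1.89 there in CT-LCG, below the outer root sheath, while in FT-LCG it reached 5.63, where the intervals of the 2 overlapped. The mast-like cells of FT-LCG had 4.03 from 68 UMIs, 33 of them in 1 cell. With every cell thinned to 1000 UMIs, a SOX9 UMI was held by 30.7% (CT-LCG) and 43.3% (FT-LCG) of outer root sheath cells, against 2.1% and 8.0% of endothelial-like cells, which should lack it. Before thinning the shares were 53.2% and 75.4% against 8.8% and 14.7%. Median depths were 2713.5 and 3446 UMIs in the outer root sheath and 1788 and 2661.5 in the endothelial-like cells. Thinning left out 6 and 44 outer root sheath cells.

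NFIB, a nuclear factor I protein of the follicle stem cells, was one of the most abundant of the 10 in the outer root sheath. Its level there was 6.56 (5.90 to 7.26) in CT-LCG and 9.21 (8.91 to 9.51) in FT-LCG. It was 0.50 and 0.82 in the matrix and cortex, 0.48 and 2.10 in the stromal cells, and 3.30 and 0.49 in the inner sheath. The CT-LCG inner sheath value rested on 8 UMIs and its interval, 1.42 to 6.50, overlapped that of the outer root sheath. In every other population and cluster of both libraries NFIB was lower than in the outer root sheath beyond the counting intervals. Thinned to 1000 UMIs, 43.2% and 61.2% of outer root sheath cells held an NFIB UMI. Endothelial-like cells were no background for this gene, with 14.6% and 30.4%, while T cell-like cells had 3.8% and 6.5%. The cluster led by TRPV3 and DENND2C had 18.7% and 33.5%.

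TBX1, a T-box factor of the follicle stem cells, had much lower levels outside the outer root sheath. Its level in the outer root sheath was 1.34 (1.06 to 1.68) from 75 UMIs in CT-LCG and 2.51 (2.36 to 2.67) from 977 UMIs in FT-LCG. The matrix and cortex of CT-LCG held 0 UMIs, with a Poisson upper limit of 0.185, and that of FT-LCG had a level of 0.12. Over all populations and clusters the next level was 0.225 in CT-LCG, in an unnamed cluster led by LOC108633223, and 0.79 in FT-LCG, in the endothelial-like cells. Both lay below the outer root sheath beyond counting error. TBX1 UMIs were found in 19.3% and 29.3% of thinned outer root sheath cells, against 0.583% and 0.803% of basal epidermal-like cells. Before thinning the shares were 37.2% and 66.2% against 3.78% and 5.96%. Among other clusters of FT-LCG, the highest thinned shares were 7.97% (endothelial-like), 5.37% (led by TRPV3 and DENND2C) and 4.79% (led by LOC102169125 and KAP8). In CT-LCG the same clusters had 0%, 0.549% and 0.779%, and the highest share was 2.93%, in the cluster led by LOC108633223.

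LHX2, a LIM homeobox factor that holds follicle stem cells in reserve, was scarcely captured. It had 78 UMIs in all the cells of both libraries, 4 in CT-LCG and 74 in FT-LCG. Of the FT-LCG UMIs, 34 lay in the outer root sheath, at a level of 0.087 (0.061 to 0.12), and 25 in the cluster led by TRPV3 and DENND2C, at 0.027. In CT-LCG the outer root sheath held none, with a Poisson upper limit of 0.0661 that overlaps the FT-LCG interval, so a difference between the libraries was not detectable at this depth.

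SOX4, a SoxC factor of progenitor cells, was high in the outer root sheath and widespread outside it. Its outer root sheath level was 10.6 (9.73 to 11.5) in CT-LCG and 6.02 (5.77 to 6.26) in FT-LCG. The stromal cells had 3.85 and 3.04 and the endothelial-like cells 4.93 and 4.85. In the matrix and cortex SOX4 was 1.00 (0.61 to 1.55) in CT-LCG and 3.71 (3.48 to 3.95) for the FT-LCG cells. In the inner sheath it was 7.42 (4.40 to 11.7) from 18 UMIs and 1.09. Among the 4 populations the outer root sheath led in both libraries, but in CT-LCG its interval overlapped that of the inner sheath, and the order below it differed between the libraries.

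The 4 factors were also counted together in single cells. All of SOX9, NFIB, TBX1 and SOX4 had a UMI in 22 of the 94 outer root sheath cells of CT-LCG and in 214 of the 536 of FT-LCG, and none of them in 9 and 7 cells. Of the cells with TBX1, 27 of 35 and 274 of 355 also held SOX9, and 32 of 35 and 332 of 355 held NFIB. Among all outer root sheath cells SOX9 was in 53.2% and 75.4% and NFIB in 75.5% and 89.2%. In thinned cells 9 of 17 and 65 of 144 cells with TBX1 held SOX9, beside 30.7% and 43.3% of all, and 10 of 17 and 96 of 144 held NFIB, beside 43.2% and 61.2%. After thinning, cells with at least 3 of the 4 fell to 15 with 3 and 3 with all 4 among 88 cells in CT-LCG, and to 93 and 22 among 492 cells in FT-LCG.

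**Figure D2:**
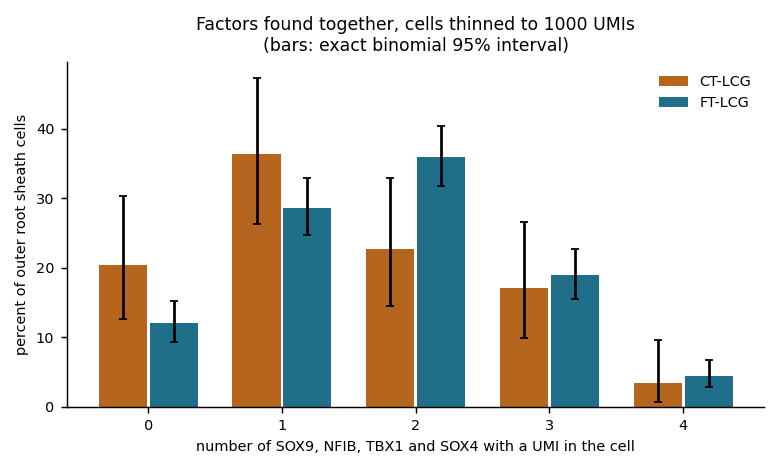
Percent of outer root sheath cells, thinned to 1000 UMIs, in which 0, 1, 2, 3 or all 4 of SOX9, NFIB, TBX1 and SOX4 had a UMI, with exact binomial 95% intervals. CT-LCG has 88 cells and FT-LCG 492, and cells with none of the 4 number 18 and 59.

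MSX2 is a homeobox factor of the matrix and early shaft. FOXN1 is the forkhead factor mutated in nude mice that drives shaft keratins. Among the 4 populations both had their higher levels in the inner compartments, the matrix and cortex and the inner sheath. MSX2 was 1.45 (0.97 to 2.08) in the matrix and cortex of CT-LCG and 0.93 (0.82 to 1.06) in that of FT-LCG. The inner sheath had 1.65 from 4 UMIs and 0.93 from 64 UMIs, which did not differ from the matrix and cortex beyond counting error. In each library 1 inner sheath cell gave much of this, with 3 of the 4 and 31 of the 64 UMIs. MSX2 was 0.25 and 0.06 in the outer root sheath and 0.25 and 0.42 in the stromal cells. Both inner compartments were above the outer root sheath beyond counting error in each library. For the matrix and cortex this order is the reverse of that of TBX1 and SOX9.

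Among the other clusters only the cycling-like one came near, with MSX2 at 0.81 and 0.51. Within the matrix and cortex of FT-LCG, 25 cells with transcripts of the division genes MKI67, TOP2A, CENPF and UBE2C were taken as dividing. Their MSX2 level was 1.56 (1.26 to 1.90), and that of the other 138 cells was 0.74 (0.63 to 0.87). Of the 97 MSX2 UMIs of the dividing cells, 32 came from a single cell. Among thinned cells, 2 of 25 dividing cells (8%) and 12 of 135 others (8.89%) held an MSX2 UMI, with overlapping intervals. The higher level of the dividing cells was not seen in these shares. CT-LCG held only 2 such dividing cells, too few to compare. After thinning, 10.2% and 8.8% of matrix and cortex cells held an MSX2 UMI, against 4.2% and 0.725% of endothelial-like cells, and before thinning 29.6% and 48.5% against 8.77% and 2.56%. In CT-LCG the thinned intervals overlapped, at 3.40% to 22.2% in the matrix and cortex and 0.509% to 14.3% in the endothelial-like cells. The cycling-like cluster had thinned shares of 8.70% and 4.17%. The symbol MSX2 stands on a pair of gene identifiers in the matrix, of which only one had UMIs, so its level is uncertain where reads fit both copies.

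FOXN1 was 0.40 (0.17 to 0.79) in the matrix and cortex of CT-LCG, from 8 UMIs, and 0.42 (0.35 to 0.51) in that of FT-LCG, from 112. It was 0.05 and 0.02 in the outer root sheath, and the stromal cells had no UMI (CT-LCG) and 2 UMIs (FT-LCG). The inner sheath had 1.24 from 3 UMIs and 0.22 from 15. In FT-LCG the dividing matrix cells had 0.241 (0.135 to 0.397) and the others 0.477 (0.387 to 0.582). This is the reverse of the order of the MSX2 levels, but these intervals overlapped. Over the 11 other clusters FOXN1 was at most 0.239, with 0.05 and 0.09 in the suprabasal epidermal-like cluster. The value of 0.239 (0.153 to 0.356) was in CT-LCG, in the cluster led by LOC102169125 and KAP8, and overlapped the matrix and cortex. In FT-LCG the inner sheath interval, 0.122 to 0.360, overlapped that of the cycling-like cluster, 0.124 to 0.179.

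GATA3, the zinc finger factor that specifies the inner root sheath and is also used by T cells, was broad in the epidermis and low in the matrix and cortex. The matrix and cortex had 0.50 (0.24 to 0.92) and 0.28 (0.22 to 0.35), the lowest of the epithelial populations in both libraries. Levels were 2.02 and 1.87 in the outer root sheath, and the basal epidermal-like cluster had 1.96 and 2.18, the suprabasal one 2.15 and 2.33, and the T cell-like cluster 2.76 and 2.57. In the inner sheath GATA3 was 5.77 (3.16 to 9.69) in CT-LCG and 2.10 (1.77 to 2.47) in FT-LCG. The CT-LCG value rested on 14 UMIs, 12 of them in 1 cell, and the FT-LCG value did not differ from the outer root sheath beyond counting error. Without the largest cell of each population and library, the mean of the 2 libraries no longer put the inner sheath first. It was 0.831 times that of the outer root sheath. The largest inner sheath cell held 12 of the 14 GATA3 UMIs in CT-LCG and 33 of the 144 in FT-LCG.

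GATA3 was also measured in cells rich in KRT25, a keratin of the inner root sheath, that carried too little TCHH for the inner sheath. These were picked out after the keratin values were seen, with at least 50 KRT25 UMIs per 10000, and numbered 14 in CT-LCG and 20 in FT-LCG. Their GATA3 level was 5.88 (4.49 to 7.57) and 4.46 (3.95 to 5.02). In FT-LCG this was above the TCHH-gated inner sheath and above the matrix and cortex, beyond counting error. In CT-LCG 28 of the 60 UMIs came from 1 cell. SOX9 was at 0.29 and 0.098 in the KRT25 cells, from 3 and 6 UMIs.

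**Figure D3:**
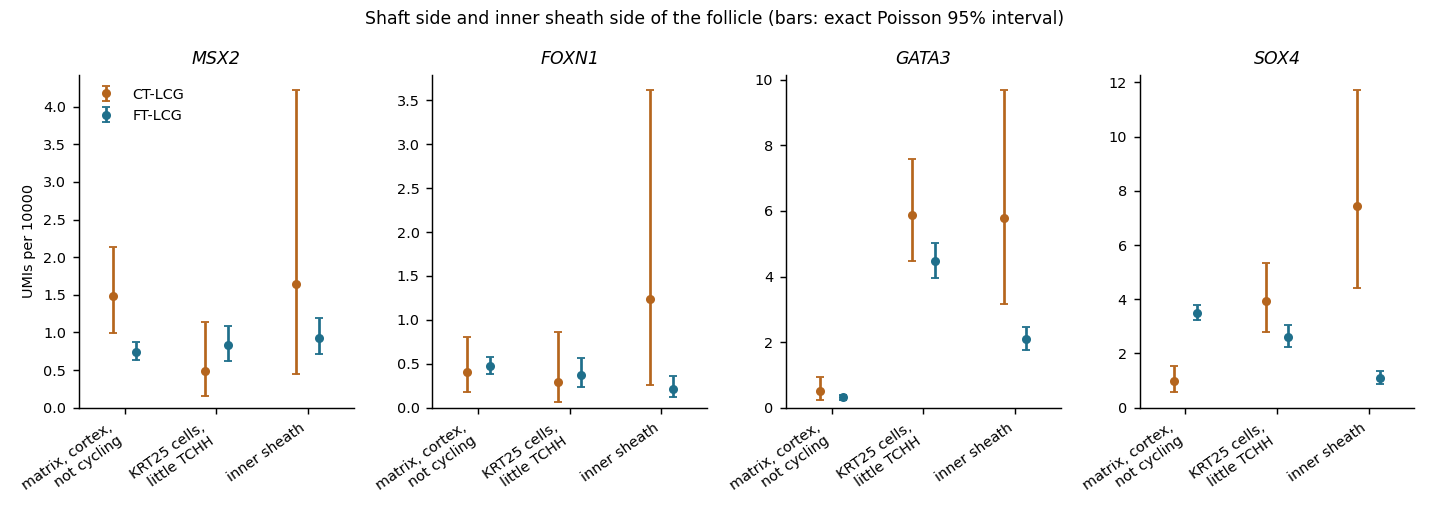
Levels of MSX2, FOXN1, GATA3 and SOX4, in UMIs per 10000 with exact Poisson 95% intervals, in matrix and cortex cells that were not dividing, in KRT25 cells with little TCHH and in the TCHH inner sheath, for CT-LCG in brown and FT-LCG in blue. GATA3 is lowest in the matrix and cortex in both libraries, at 0.51 and 0.31, while the MSX2 and FOXN1 intervals of the 3 groups mostly overlap.

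ALX4 and SOX18 were the stromal factors. ALX4, a homeobox factor of mesenchyme that includes the dermal papilla, had 28 UMIs in all cells, 20 in the stromal cells of CT-LCG and 5 in those of FT-LCG. The levels were 0.41 (0.25 to 0.64) and 0.092 (0.030 to 0.21). The other 3 UMIs lay in the shallow cluster led by LOC102169125 and KAP8, and every other population and cluster held 0. SOX18, a SoxF factor of vessels and of the dermal papilla, was 2.86 (2.40 to 3.38) in the stromal cells of CT-LCG and 1.75 (1.42 to 2.14) in those of FT-LCG. In the endothelial-like cells it was 1.47 (1.00 to 2.09) and 3.98 (3.57 to 4.42), so the order of these 2 populations was opposite in the 2 libraries. No population of the epithelium exceeded 0.13 in either library, apart from a level of 0.41 from 1 UMI in the CT-LCG inner sheath.

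Within the stromal cluster, most UMIs of both factors lay in the cells that held RSPO3 itself. Such cells numbered 56 of 100 (CT-LCG) and 9 of 115 (FT-LCG), and after thinning 41.2% and 3.88% of stromal cells held RSPO3. Cells with RSPO3 were also deeper, with medians of 5367.5 and 5570 UMIs against 3347 and 3763.5, and the part of depth in the split was not tested. SOX18 was 4.12 (3.44 to 4.90) with RSPO3 and 0.53 (0.24 to 1.01) without it in CT-LCG. In FT-LCG it was 12.6 (10.1 to 15.5) in the 9 cells with RSPO3, where 32 of the 86 UMIs came from 1 cell, and 0.19 (0.087 to 0.36) in the 106 without. ALX4 was 0.575 (0.341 to 0.909) and 0.585 (0.159 to 1.5) in the RSPO3 cells, from 18 and 4 UMIs, and 0.12 and 0.021 in the others. The 4 ALX4 UMIs of the FT-LCG RSPO3 cells lay in 2 cells, 3 of them in 1 cell. The ALX4 intervals of the RSPO3 cells overlapped between the libraries, and a difference was not detectable at this count. Over all stromal cells the ALX4 intervals did not overlap, with CT-LCG the higher. The SOX18 intervals of the RSPO3 cells did not overlap either, with FT-LCG the higher.

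Cells with ALX4 numbered 13 and 3, of which 12 and 2 held RSPO3 and 10 and 2 held SOX18. Endothelial genes were near 0 in the same stromal cells, since the RSPO3 cells had no UMI of PECAM1 or VWF in either library and 1 UMI of PLVAP in CT-LCG. WIF1 and CRABP1, further genes of the dermal papilla, were at 8.95 and 7.70 in the RSPO3 cells of CT-LCG and at 4.39 and 9.07 in those of FT-LCG. As a background, the granular layer-like cluster held no ALX4 UMI, with Poisson upper limits of 0.0104 and 0.00467, and 0 and 1 UMIs of SOX18. A SOX18 UMI was found in 14.4% and 9.71% of thinned stromal cells, and before thinning in 40% and 11.3%. In endothelial-like cells the thinned shares were 18.75% and 26.8%, and those before thinning 24.6% and 54.5%. The thinned share was thus higher in endothelial-like than in stromal cells in both libraries, though in CT-LCG the intervals overlapped.

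**Figure D4:**
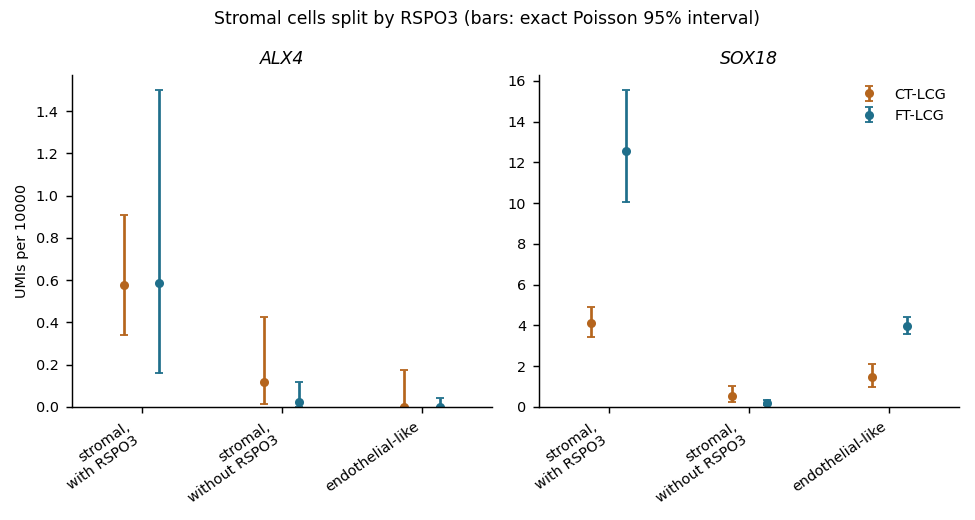
Levels of ALX4 and SOX18, in UMIs per 10000 with exact Poisson 95% intervals, in stromal cells with and without an RSPO3 UMI and in endothelial-like cells, for CT-LCG in brown and FT-LCG in blue. ALX4 is at 0.575 and 0.585 in the RSPO3 cells and SOX18 at 4.12 and 12.6, with lower values in the stromal cells without RSPO3.

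Between the fibre types, 26 pairs of a factor and a population had at least 20 UMIs. Of these, 4 were at least 2-fold higher in FT-LCG and 5 in CT-LCG, which compares 2 libraries and not the types of goat. In the outer root sheath none of 7 factors was 2-fold higher in FT-LCG, against 7.17% of genes, and MSX2 alone was higher in CT-LCG, against 15.7%. TBX1 was 1.87 times, NFIB 1.40 times and SOX9 1.24 times as high in FT-LCG as in CT-LCG, while SOX4 was 1.76 times as high in CT-LCG. In the matrix and cortex SOX4 was 3.71 times as high in FT-LCG, where 5.25% of genes passed, and no factor was 2-fold higher in CT-LCG, against 8.91% of genes. The make-up of these cells differed too, with the 3 suprabasal genes summing to 65.7 against 13.6 and the 4 division genes to 0.801 against 3.38. CENPF was at 0 in CT-LCG, and dividing cells were 2 of 54 against 25 of 163. The rule for dividing cells needs at least 2 UMIs, and median depths were 2001.5 and 16067 UMIs. The part of depth in this count was not tested. In the cells that were not dividing SOX4 was at 0.976 and 3.50, and the part of the suprabasal genes was not tested.

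In the stromal cells SOX9, NFIB and GATA3 were 4.07, 4.41 and 3.97 times as high in FT-LCG, where 10.4% of genes passed, and ALX4 was 4.50 times as high in CT-LCG, where 10.1% did. Genes of basal keratinocytes moved with the first 3. All 4 of that list had UMIs in both libraries, and their summed level in the stromal cells was 9.30 in CT-LCG and 47.2 in FT-LCG. Their part in the result was not tested. In the inner sheath NFIB, GATA3 and SOX4 were higher in CT-LCG, 3 of 5 factors against 26.4% of genes, and none in FT-LCG, against 2.92%. The CT-LCG values rested on 8, 14 and 18 UMIs from 16 cells. Epidermal markers were also higher in these cells. All 3 suprabasal genes (KRT1, KRT10, KRTDAP) had UMIs in both libraries and summed to 199.98 in CT-LCG against 11.5 for FT-LCG, the 4 basal genes summed to 62.7 against 16.6, and TCHH was at 210 against 623. Their part in the result was not tested.

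**Figure D5:**
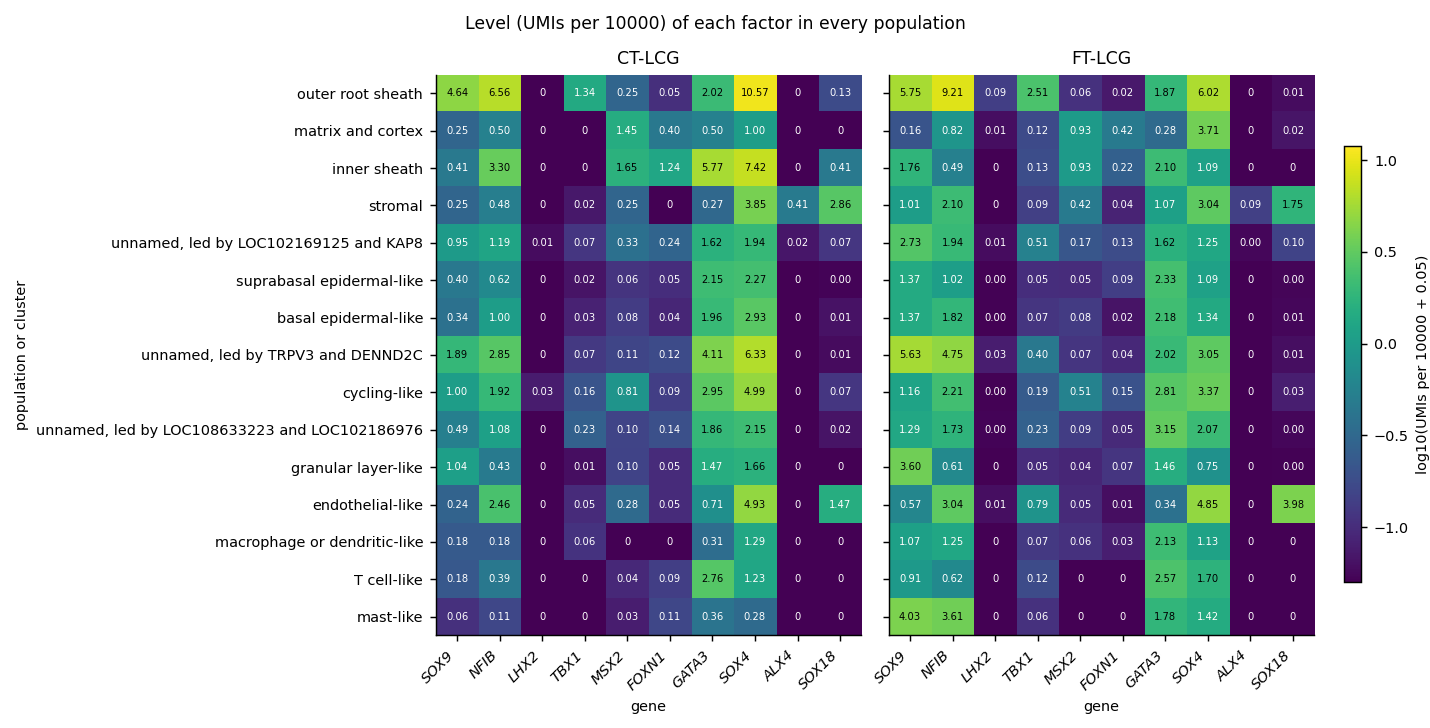
Level of each factor (columns) in the 4 populations and the 11 other clusters (rows), with the value in UMIs per 10000 printed in each field and the colour on a log10 scale after adding 0.05, for CT-LCG on the left and FT-LCG on the right. SOX9, NFIB and TBX1 are highest in the top row, at 4.64, 6.56 and 1.34 on the left and 5.75, 9.21 and 2.51 on the right, SOX18 in the stromal and endothelial-like rows, and GATA3 and SOX4 are spread over most rows.

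Other genes followed the same profiles. Likeness was measured as Pearson's r of log2 of the level plus 0.05 over 28 points, the 14 populations and clusters with at least 20 cells in each of the 2 libraries. The inner sheath, with 16 cells in CT-LCG, was left out by this rule. The points share libraries and depth, and the values are a description. Nearest to SOX9 came BARX2, a homeobox gene, with r = 0.92, and nearest to NFIB came EFNA5, an ephrin, with 0.92, and MET, a receptor kinase, with 0.89. TBX1 was most like BNC2 (0.83), GJB6 (0.82) and IRX4 (0.80), and MSX2 most like DLX2 (0.83), a homeobox gene. FOXN1 was most like LOC102169702 (0.78). GATA3 was most like BCL11B (0.83), SOX4 most like TCF7L2 (0.82), and SOX18 most like COL15A1 (0.98) and EBF1 (0.97). Among the factors themselves the highest values were 0.76 for TBX1 with NFIB, 0.75 for NFIB with SOX9, 0.69 for SOX4 with NFIB and 0.67 for FOXN1 with MSX2, and the lowest was -0.47 for SOX18 with GATA3.

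A list of 40 further transcription factors of the follicle and its surroundings was described in the same way. Of the 27 with enough UMIs, 16 were highest in the same population in both libraries, 4 in the outer root sheath, 4 in the matrix and cortex, 2 in the inner sheath and 6 in the stromal cells, beside the 45.4% of all ranked genes. Most genes listed for the 3 epithelial compartments were not led in both libraries by the population they were listed for. Those that were numbered 3 of 9 ranked outer root sheath and stem cell genes, 3 of 8 matrix and shaft genes and 1 of 5 inner sheath genes. Beside SOX9 and NFIB in the outer root sheath stood NFIX, a second nuclear factor I gene, at 2.76 and 3.36, TP63, the master regulator of stratified epithelia, at 1.52 and 2.28, and VDR, the vitamin D receptor, at 0.70 and 1.10. VDR had been listed for the matrix and shaft. Beside MSX2 in the matrix and cortex stood OVOL1 at 2.85 and 2.12, HOXC13, which drives hair keratins, at 2.30 and 1.48, and LEF1, the effector of Wnt signals, at 1.35 and 1.07. In CT-LCG the intervals of NFIX, TP63, VDR, OVOL1, HOXC13 and LEF1 overlapped those of the inner sheath, and that of LEF1 also the stromal cells.

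In the inner sheath CUX1, a gene needed for a normal inner root sheath, was at 4.54 and 2.46. FOXC1, which had been listed for the outer root sheath and stem cells, was at 1.65 and 0.86. The CT-LCG value of CUX1 rested on 11 UMIs in 4 cells. Its interval, 2.26 to 8.12, overlapped that of the outer root sheath, 1.67 to 2.43. Of the dermal papilla and fibroblast genes 3 of 10 could be ranked, and all 3 were highest in the stromal cells, namely TWIST1 at 11.5 and 4.59, PRRX1 at 4.33 and 2.62, and PRRX2 at 4.12 and 2.98. These 3 and FOXC1, in the inner sheath, were the genes of the list at least 2-fold above the other 3 populations in both libraries, beside 1.02% (stromal) and 0.979% (inner sheath) of the 7047 ranked genes. FOXC1 in the CT-LCG inner sheath rested on 4 UMIs in 2 cells, and its interval, 0.449 to 4.22, overlapped that of the outer root sheath, 0.261 to 0.618.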

How the data were processed

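Skin of 2 goats was measured, 1 library per fibre type. The deposited values are raw UMI counts, which the authors obtained with Cell Ranger 3.0.2, and the authors' list of 13051 kept cells, from 17299 barcodes, gave each cell's library. No genome build of the goat is given in the sources used, and 27103 of 27137 gene names matched the RefSeq table. Of 81 listed markers 65 were in the matrix. Depth ran from 729 to 172185 UMIs per cell in CT-LCG and from 630 to 190503 in FT-LCG, and intervals cover counting error only.

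Cells with over 10% of their UMIs from 12 milk and gland genes (24 cells) were left out. Counts were scaled to 10000 and log-transformed, and 2000 variable genes, without the factors and the 40 further genes, gave 10 principal components. Libraries were aligned with Harmony (rewritten in numpy 2.4.6), and Leiden clustering (leidenalg 0.10.2, 20 neighbours, resolution 0.4) gave 13 clusters, named only where markers listed for a cell type led them. Clusters were planned for all 4 populations. Since no cluster held the KRT35 or the TCHH cells alone, these were taken by their own UMIs (at least 5 KRT35 or 10 TCHH), a choice made after seeing those genes. No doublets were removed, and an alternative leaves out cells in the top 5% of Scrublet scores (scanpy 1.11.5). Genes with at least 20 UMIs over the 4 populations in each library were ranked, and pairs needed 20 UMIs over both libraries. All 10 factors are named. From the further genes the 3 highest that each population led in both libraries are given, and for each factor with at least 50 UMIs in each library the most alike genes come from the 3 with the highest r. The 10 genes and all lists were chosen with earlier results of these data known. Steps were tested on simulated data. The simulation gave the CT-LCG inner sheath more UMIs than the 24252 measured, so the 2-fold calls were not tested at that depth.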

Additional observations from a re-analysis of the deposited data

Results flagged for a closer look

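SOX4 moved in opposite directions between the libraries in 2 populations: its level in FT-LCG was 3.71 times that in CT-LCG in the matrix and cortex and 0.569 times in the outer root sheath. With 1 library per type this difference was not tested. The matrix and cortex cells had median depths of 2001.5 (CT-LCG) and 16067 (FT-LCG) UMIs, the 3 suprabasal epidermal genes summed to 65.7 and 13.6 UMIs per 10000, and 2 of 54 and 25 of 163 cells were dividing. The part of these in the result was not tested.

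Some factors were also found in data outside the comparisons, with more than 3 UMIs in each library. In the 24 gland cells left out, NFIB was at 1.45, SOX4 at 0.585 and GATA3 at 0.213 UMIs per 10000 with both libraries summed. In the 2659 CT-LCG and 1589 FT-LCG barcodes that the authors did not keep, NFIB was at 1.91, SOX4 at 1.83, GATA3 at 1.74, SOX9 at 1.38, MSX2 at 0.282, TBX1 at 0.279, FOXN1 at 0.158 and SOX18 at 0.0638. The levels of SOX9 and NFIB in the matrix and cortex lay below these, and those in the outer root sheath above them.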

How the results depend on the processing

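In all, 18 alternatives were tried. SOX9, NFIB, TBX1 and SOX4 were led by the outer root sheath under all 18. Ratios to the next population were taken with its level raised to that of at least 3 UMIs. The lowest were 2.83 (SOX9), 1.99 (NFIB), 0.934 (TBX1, with cells of at least 1000 genes) and 1.34 (SOX4). A ratio below 1 means that the leading level lay under the raised one. LHX2 and ALX4 had too few UMIs for a lead. SOX18 kept its lead under 17, though its ratio after thinning was 0.745. With clusters for all 4 populations the cluster highest in TCHH was the endothelial-like one, and the SOX18 level of the stromal cells, as the mean of the libraries, was 0.885 times that of this cluster. Of 17 alternatives, GATA3 was highest in the inner sheath under 15, by the mean of the libraries where both were used. Another seed, resolution, number of components or set of variable genes, or no Harmony, left the same 16 and 25 gated inner sheath cells. Those alternatives could not change the inner sheath level. With FT-LCG alone the GATA3 ratio was 1.12. The factors led by the same population in both libraries, 6 of 7 ranked, were 4 of 4 after thinning, 7 of 7 with the mean over cells or without the inner sheath, 7 of 8 with clusters for all 4 populations, and 6 of 7 otherwise. The 2 factors at least 2-fold above the other populations became 0 with cells of at least 1000 genes, where the CT-LCG inner sheath keeps 3 cells, 1 with cells thinned to 1000 UMIs, 5 without the inner sheath, and 3 or 4 with 1 library alone. Thinning also lowered the pairs at least 2-fold apart from 9 to 3 and the further genes led by the same population from 16 to 9, with fewer UMIs to rank, and clusters for all 4 populations raised the latter to 26. Keeping the gland cells, clusters for all 4 populations, leaving out the largest cells and leaving out the inner sheath were chosen after seeing the data. Comparisons between the libraries cannot be run with 1 library. No paired analysis was possible because each type has 1 library.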
